A study of Drosophila melanogaster with 2 samples.

Results

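Dachshund was immunoprecipitated from fly chromatin through a GFP tag, and the peaks described here are those at its own gene, dac (FBgn0005677, 2L, 16466512 to 16485998 on dm6, minus strand). A peak was counted at dac when its summit had dac as the nearest protein-coding transcription start site (TSS) or lay in the dac gene body. The authors' main list comes from the irreproducible discovery rate (IDR) procedure, which weighs how alike replicates rank their peaks. Of its 4137 peaks, 3996 were found in both replicate lists, and 3 met the rule for dac. In the longer, relaxed lists it was met by 16 of 30000 peaks of the pooled replicates, 16 of 30000 of replicate 1 and 14 of 30000 of replicate 3. The series holds 1 group, whole prepupae of both sexes whose dac-GFP transgene adds GFP at the C-terminus of the protein, sampled as biological replicates that the labels number 1 and 3. The labels also give an age in days that disagrees with the stage and was not used. No untagged or mock sample was analysed here, so binding of the tagged protein and non-specific recovery cannot be told apart, and the genotype of the control that entered peak calling is not given in the sources used here. Chromatin came from whole animals, so sites in different tissues are pooled in each library and cannot be told apart.

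Dachshund is a nuclear protein that acts in transcriptional control. It is a member of the retinal determination network, a set of mutually linked transcription regulators that specify eye fate, and it is also needed for the middle segments of the leg and for the mushroom bodies of the brain. In that network Eyeless, Eyes absent and Sine oculis act upstream of dac, and enhancers that drive dac in the eye have been described on both sides of the promoter. The dac promoter region is also a known target of Polycomb group proteins in flies. The labels do not state how much dac sequence, if any, the dac-GFP transgene carries. Possible extra copies of dac DNA in the animals and recovery of dac chromatin by the antibody therefore cannot be told apart at this locus.

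The sequences below carry the sites described in the following paragraphs. They were read from the RefSeq genome (Release 6, the dm6 build) on the minus strand, 5′ to 3′ in the direction of dac transcription, and capitals mark matches to the motifs described later. The stretch just upstream of the TSS, which the promoter peak of replicate 1 reaches, holds no match to any searched motif. The whole middle IDR peak, the IDR peak with the highest signal at dac, and the window around the summit of the far IDR peak come next. The intron windows are centred on the pooled summits in introns 3 and 8 that ranked highest outside the IDR list.
Upstream side of the dac promoter, chr2L:16485999-16486149: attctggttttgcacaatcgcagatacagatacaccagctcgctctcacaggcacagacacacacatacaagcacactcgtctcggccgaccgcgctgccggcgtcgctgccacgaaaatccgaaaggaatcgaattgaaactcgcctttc
Middle IDR peak, chr2L:16486407-16486593: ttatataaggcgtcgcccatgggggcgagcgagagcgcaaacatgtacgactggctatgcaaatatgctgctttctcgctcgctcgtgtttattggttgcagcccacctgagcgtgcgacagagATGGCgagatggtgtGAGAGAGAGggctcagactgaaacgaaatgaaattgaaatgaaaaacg
Far IDR peak, chr2L:16486718-16486918: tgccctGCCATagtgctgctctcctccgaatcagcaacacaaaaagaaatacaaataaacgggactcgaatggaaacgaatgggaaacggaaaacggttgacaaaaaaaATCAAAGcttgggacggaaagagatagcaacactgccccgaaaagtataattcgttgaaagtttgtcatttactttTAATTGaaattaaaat
Intron 3 site, chr2L:16476713-16476913: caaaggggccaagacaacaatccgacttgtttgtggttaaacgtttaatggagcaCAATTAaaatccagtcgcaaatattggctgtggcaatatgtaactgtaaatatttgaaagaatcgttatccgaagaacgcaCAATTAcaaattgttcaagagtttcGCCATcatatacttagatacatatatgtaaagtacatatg
Intron 8 site, chr2L:16469726-16469926: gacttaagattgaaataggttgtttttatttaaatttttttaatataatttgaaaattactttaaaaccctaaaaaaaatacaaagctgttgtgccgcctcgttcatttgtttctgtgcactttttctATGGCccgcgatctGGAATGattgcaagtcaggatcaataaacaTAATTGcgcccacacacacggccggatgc

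All 3 IDR peaks at dac clustered at its 5′ end, within 1000 bp of its single annotated TSS at 16485998, and none lay in the introns. The promoter peak (16485625 to 16486034, 410 bp wide) had its summit 168 bp inside the transcribed part, in the first exon and 5′ UTR, and 374 of its bases were transcribed against 36 upstream. Its signal, the authors' own value per peak on an unstated scale, was 195.9, which ranked 1697 in the pooled list. The middle peak (16486407 to 16486593, 187 bp) had the highest signal at dac, 216.6 (rank 1471), with its summit 557 bp upstream of the TSS. The far peak (16486613 to 16487022, 410 bp) followed after a gap of 19 bp, with its summit 820 bp upstream and a signal of 115.1 (rank 3866). All 3 peaks held the same rank by signal in the IDR list as in the pooled list.

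These signals lay in the middle and lower range of the IDR list. The promoter and middle peaks were above the list's median of 172, and the far peak was close to its lowest value of 109.8. A width of 410 bp was shared by 64.0% of all IDR peaks, so the ends of the promoter and far peaks carry little information about the extent of a site. The next protein-coding TSS upstream is that of Nepl8, a neprilysin-like peptidase gene that runs away from dac head to head, 2150 bp from the dac TSS and 1330 bp from the far summit. The rule for dac therefore reaches upstream only to 16487073, and summits beyond that are counted at Nepl8. Of all protein-coding genes, 0.380% (53 of 13945) had at least 3 IDR summits within 1000 bp of a TSS, as dac did. That share was counted without merging, and merging IDR peaks within 100 bp left 2 at dac, since its middle and far peaks lie 19 bp apart.

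**Figure D1:**
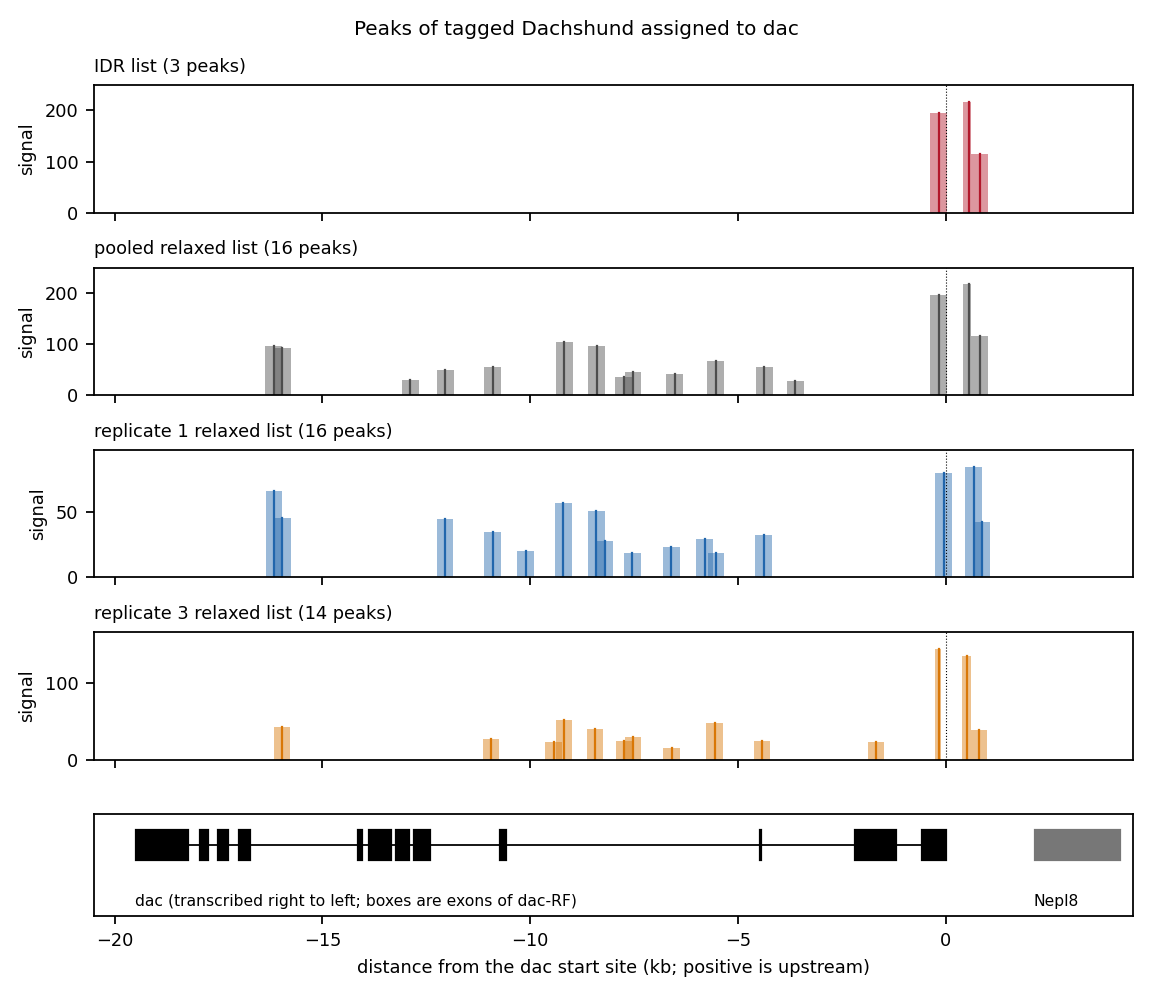
Peaks at dac in the 4 lists, drawn by distance from the dac TSS (x axis, kilobases, upstream positive) and signal (y axis, the authors' scale per list), with summits as dark lines and the exons of dac at the bottom. The 3 IDR peaks sit at the TSS and upstream of it, while most peaks of the relaxed lists lie in the introns.

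Both replicates had peaks at the promoter and at the upstream site, and these were the highest ranks that dac reached in either replicate. At the promoter, replicate 1 had a peak of signal 80.7 (rank 1655) with its summit 50 bp inside the gene, and replicate 3 a peak of 144.0 (rank 1317) with its summit 168 bp inside. At the upstream site, replicate 1 had 85.4 (rank 1488) with its summit 667 bp upstream, and replicate 3 had 134.5 (rank 1471) with its summit 501 bp upstream. Signal scales differ between lists, so only the ranks can be set side by side, and these were close. The summits were less close, 118 bp apart at the promoter and 166 bp apart upstream, against a median of 29 bp and a 90th percentile of 110.5 bp over the 3996 IDR peaks found in both replicate lists. Each replicate also had a second, weaker upstream peak, at rank 4897 in replicate 1 (866 bp upstream) and at rank 9539 in replicate 3 (801 bp upstream), both close to the far IDR summit.

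Most relaxed peaks at dac lay inside the gene, in its introns. The rule for dac covers 20562 bp, of which 19487 bp are gene body, so members were likely to lie there by the rule alone. Of the peaks with a summit in the gene body, 13 of 14 in the pooled list, 13 of 14 in replicate 1 and 10 of 12 in replicate 3 were in introns, which make up 74.6% of the body. Intron 3, the longest at 6119 bp, held 6 of these in the pooled list, 8 in replicate 1 and 7 in replicate 3. No list had a summit in the 3109 bp at the 3′ end of the gene. Relaxed lists have a fixed length and include weak peaks. At q of 0.05 or less, dac kept 8 peaks in each of the 3 relaxed lists, 6 of them in the gene body. That was 8 of 16 in the pooled list, against 30.6% of all its peaks, 8 of 16 in replicate 1, against 17.6%, and 8 of 14 in replicate 3, against 46.1%.

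The intron sites that ranked highest in the pooled list fell just outside the IDR list. A site in intron 3, 9185 bp from the TSS, ranked 4469 in the pooled list with a signal of 103.8, below the lowest IDR signal of 109.8. It ranked 2986 in replicate 1 and 6407 in replicate 3. The second upstream peaks of the replicates, close to the far IDR summit, ranked lower than that, at 4897 and 9539. A site in intron 8 had 2 pooled summits, 16172 and 15966 bp from the TSS, at ranks 4980 and 5368. Replicate 1 also had 2 peaks there, 16167 and 15966 bp from the TSS, at ranks 2325 and 4313. Replicate 3 had 1 peak, 15970 bp from the TSS, at rank 8433. A second site in intron 3, 8401 bp from the TSS, ranked 5026 in the pooled list, 3558 in replicate 1 and 9155 in replicate 3. By their best peak, these 3 sites were among the strongest 4137 peaks of replicate 1 and not among those of replicate 3. With the promoter and upstream sites, dac had 5 peaks among the strongest 4137 of replicate 1 and 2 among those of replicate 3. The summits of the 2 intron 3 sites lay 15 and 30 bp apart between replicates. At the intron 8 site, the replicate 3 summit lay 197 bp from the stronger replicate 1 summit and 4 bp from the weaker.

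Weaker sites lay mostly in introns 2 to 5, and no member was in intron 1. A further intron 3 site, 5536 bp from the TSS, had a pooled rank of 8278 and went the other way between replicates. Replicate 3 had a peak of rank 7031 there, 5565 bp from the TSS. Replicate 1 had 2 weaker peaks, of rank 10420 at 5804 bp and of rank 27763 at 5529 bp. Sites found in both replicates in intron 4 (10899 bp), intron 2 (4372 bp) and intron 3 (7526 and 6523 bp from the TSS) had pooled ranks of 10606 to 16450. A site in intron 4, 12045 bp from the TSS, was at rank 4533 in replicate 1 and at 12739 in the pooled list but had no peak in replicate 3. Replicate 1 alone had a peak in intron 3 (rank 23005), replicate 3 alone had a peak in coding sequence 1675 bp from the TSS (rank 18207), and the pooled list alone had weak peaks in intron 5 and intron 2 (ranks 26261 and 27473).

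Merged by overlap, the peaks of the 4 lists formed 15 sites at dac, of which 10 were found in both replicates, 2 in replicate 1 alone, 1 in replicate 3 alone and 2 in the pooled list alone. Of the 16 peaks of replicate 1, 14 overlapped a peak of replicate 3 by at least 1 bp (87.5%), against 54.7% of all its peaks. Of the 14 peaks of replicate 3, 13 overlapped one of replicate 1 (92.9%), against 56.7% of all. Among the strongest 4137 peaks, 5 of 5 of replicate 1 and 2 of 2 of replicate 3 at dac overlapped a peak of the other replicate, against 96.9% and 91.4% of all such peaks. Peaks are denser at dac than over the arms, and the part of that density in these shares was not tested. With summits required to lie within 100 bp, 9 of 16 peaks of replicate 1 and 9 of 14 of replicate 3 were shared, against 35.5% of all peaks in either direction. Among the strongest 4137 peaks, that rule kept 2 of 5 at dac in replicate 1 and 0 of 2 in replicate 3, against 85.5% and 82.1% of all such peaks. Ranks of the 10 shared sites had a Spearman rho of 0.745 between replicates, a description over sites of the same libraries.

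**Figure D2:**
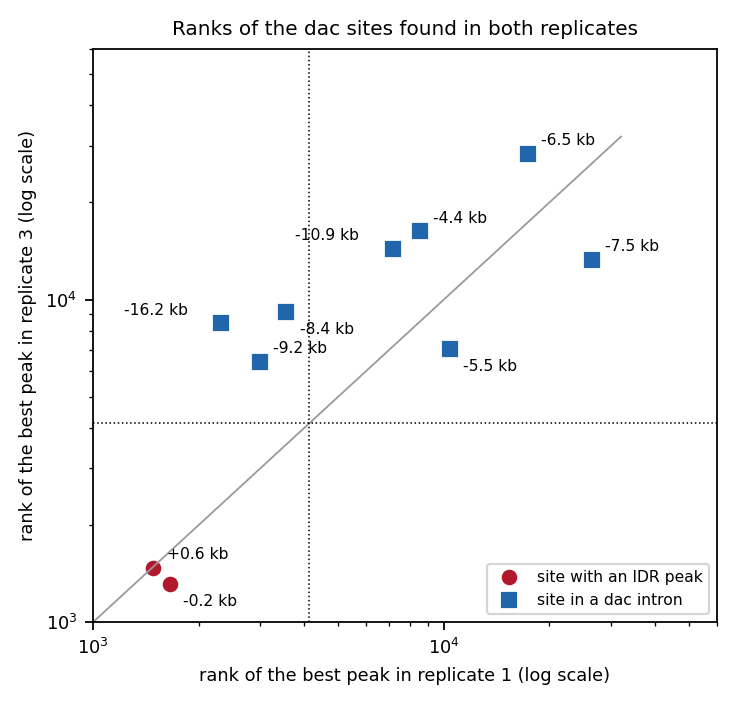
Rank of the best peak in replicate 1 (x axis, log scale) and in replicate 3 (y axis, log scale) for the 10 dac sites found in both, with the distance of the summit from the TSS beside each point. Dotted lines mark rank 4137, and the 2 sites with IDR peaks are the only ones inside both lines.

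By its best peak, dac stood in the middle of the genes with an IDR peak. It was placed 1126 among 2404 such genes, so 46.8% of them had a better-ranked peak. In the whole relaxed lists it was placed 1126 among 6489 genes of the pooled list, 1105 among 7051 of replicate 1 and 1042 among 6859 of replicate 3. Counted by the nearest TSS alone, dac had 3 IDR summits and was among the 2.85% of protein-coding genes with at least 3, and 17.2% had at least 1. In the pooled list at q of 0.05 or less, dac had 8, against 1.25% of genes with at least 8 and 27.8% with at least 1. Among the strongest peaks of replicate 1, dac had 5, against 0.889% of genes with at least 5 and 16.5% with at least 1. Among those of replicate 3, dac had 2, against 5.76% of genes with at least 2 and 18.0% with at least 1.

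Counts of summits depend on the length of sequence assigned to a gene. The dac gene and the sequence nearest to its TSS span 20562 bp, called its territory, and 1927 protein-coding genes had a territory of 0.67 to 1.5 times that length. Against the 3 IDR summits of dac their median was 0, and 8.87% (171) had at least 3. Against the 8 pooled summits of dac at q of 0.05 or less their median was 1, and 3.01% had at least 8. In the whole lists dac had 16 pooled summits, 16 in replicate 1 and 14 in replicate 3, against a median of 4 in each, and as many were found in 4.36% of these genes for the pooled list, 3.17% for replicate 1 and 7.84% for replicate 3. Among the strongest peaks of replicate 3, where dac had 2, 326 of the 1927 genes had as many.

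**Figure D3:**
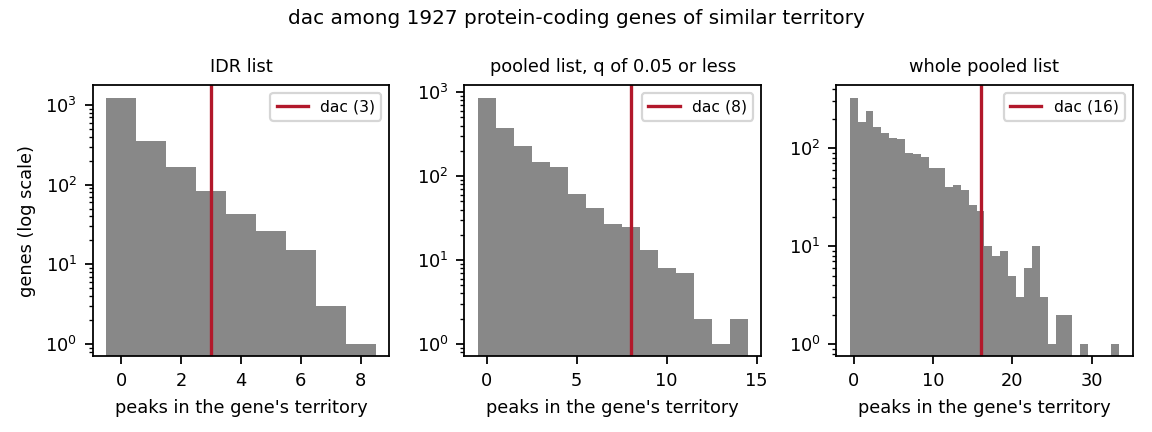
Number of summits per gene (x axis) against the number of genes (y axis, log scale) for the 1927 protein-coding genes of similar territory in the IDR list, the pooled list at q of 0.05 or less and the whole pooled list, with dac as a red line. Most of the genes had fewer summits than dac, which had 3, 8 and 16.

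Peaks were dense over dac, and in the pooled list also over the genes beside it. The dac territory held 77.8 pooled peaks per 100 kb (exact Poisson 95% interval 44.5 to 126, for counting error only), against 22.4 over the rest of the 6 chromosome arms, a ratio of 3.47 (1.99 to 5.64). In replicate 1 it was also 77.8. In replicate 3 the density was 68.1 per 100 kb, or 3.04 times the rest, and in the IDR list it was 14.6, or 4.72 times the rest with an interval of 0.974 to 13.8. On the upstream side, Tpr2, which encodes a tetratricopeptide repeat protein, had 89.6 pooled peaks per 100 kb (54.0 to 140), CG5953 81.0 (51.9 to 121) and Nepl8 96.5 (19.9 to 282). Downstream, CG5888 had 55.7, and the imaginal disc growth factor genes Idgf3 and Idgf2 had 53.9 and 47.6. The pooled intervals of all 6 neighbours overlapped that of dac. In replicate 3 the ratio to the rest was 3.79 at Tpr2, 3.46 at CG5953 and 3.19 at Idgf2 (0.657 to 9.31). It was lower there at Nepl8 (1.44, 0.0364 to 8.00), CG5888 (1.42, 0.868 to 2.20) and Idgf3 (1.20, 0.390 to 2.81). The strongest IDR peak of the neighbourhood was at CG5953, with rank 212 and 8 IDR peaks, and Tpr2 had 4 IDR peaks with a best rank of 1011.

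In 10 kb bins the dense stretch ran from 80 kb downstream of the dac TSS to 20 kb upstream of it, bounds chosen after the values were seen. Its 10 bins held 80 pooled peaks, from 5 to 13 per bin, against a mean of 2.24 per bin over all 13385 bins of the arms and a 95th percentile of 8. Replicate 1 had 94 peaks there, with 6 to 12 in every bin, and replicate 3 had 58, with 2 to 12. The IDR list had 12 over the 10 bins, a mean of 1.2 per bin with 0 to 4 in single bins, against a mean of 0.309 per bin over the arms. The replicates differed most on the downstream side, where Idgf3 had 18 peaks in replicate 1 and 5 in replicate 3, and CG5888 had 41 in replicate 1 and 20 in replicate 3. Upstream, the next bin held 1 peak in each relaxed list, and beyond it counts were again above the mean in most bins, so the locus lies in a wider peak-rich region. Whether any dac DNA carried by the transgene covers part of this stretch was not tested.

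**Figure D4:**
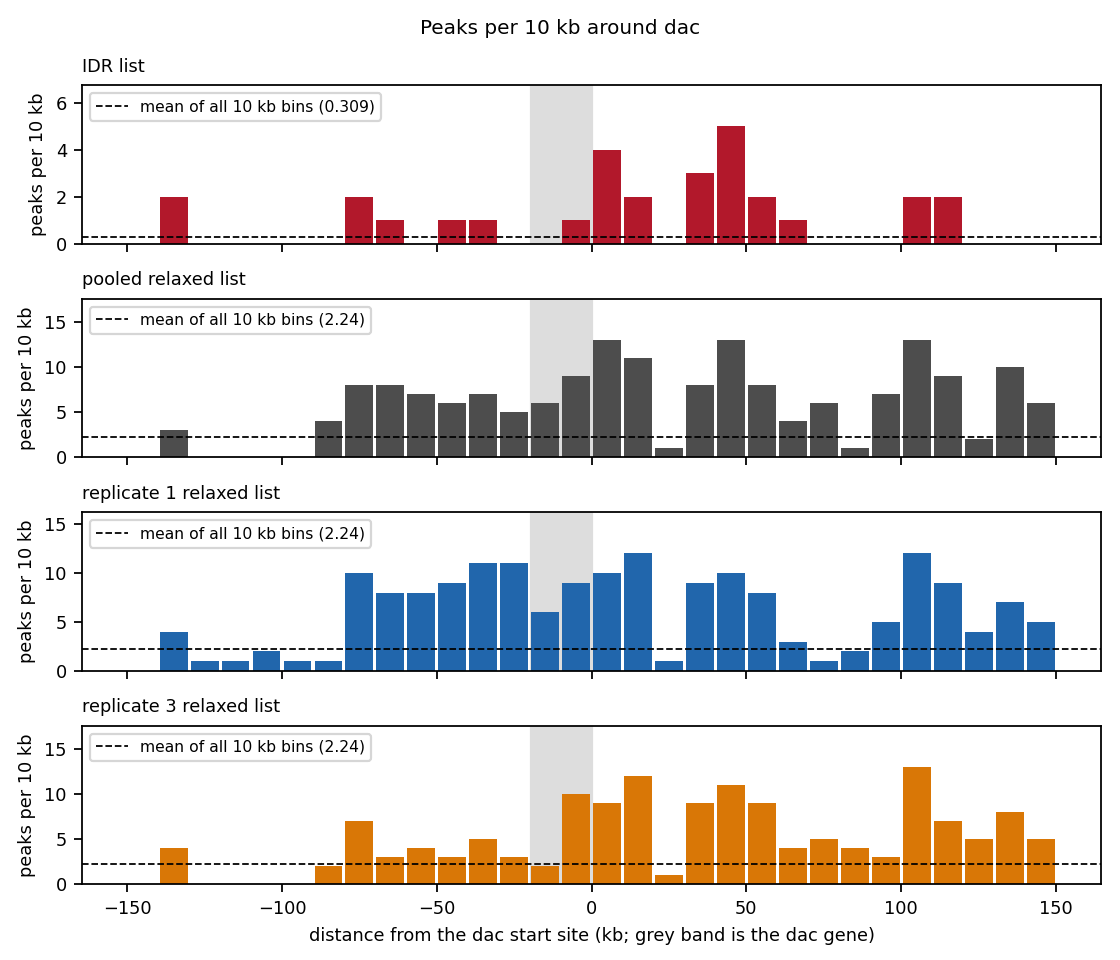
Peaks per 10 kb bin (y axis) within 150 kb of the dac TSS (x axis, kilobases, with upstream positive) in each list, with the mean of all bins as a dashed line and the dac gene as a grey band. In the pooled list and replicate 1, counts are raised over a stretch much wider than dac, with at least 5 and 6 peaks in each of its 10 bins. Single bins of that stretch fall to 2 in replicate 3, below its mean of 2.24, and to 0 in the IDR list.

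The partners of dac in the retinal determination network had IDR peaks at 2 genes and weaker peaks at most of the others. For these genes and those of the leg and antenna, peaks were counted by the nearest TSS alone. Of 12 network genes, 2 had an IDR peak (16.7%, against 17.2% of all protein-coding genes), and none had 3. With IDR peaks above the median signal, 1 of 12 had one, against 10.5% of all genes. In the pooled list at q of 0.05 or less, 7 of 12 had a peak (58.3%, against 27.8%). In the whole pooled list 11 of 12 had one (91.7%, against 46.5%), and in replicate 3 at q of 0.05 or less 9 of 12, against 36.3%. The territories of these 12 genes ran from 11392 bp at tio to 75299 bp at nmo, and the part of length in these shares was not tested. The homeobox gene so, whose product works with Eyes absent, had 1 promoter peak, 241 bp from its TSS, with a signal of 186 (rank 1841), and the zinc-finger gene tsh had 1 peak of 130 (rank 3233) 17962 bp from its TSS. The 10 others had none: the kinase gene nmo, the phosphatase gene eya, the Pax genes toy, ey, toe and eyg, the homeobox gene Optix, tio, the paralog of tsh, and danr and dan. The pooled density was 77.8 peaks per 100 kb at dac and 22.4 over the rest of the 6 arms. Over the 12 genes the median density was 16.7, below that of the rest of the arms, with 0 at toy and 42.5 at nmo, the highest.

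Genes that pattern the leg and antenna along the proximal-distal axis, where dac acts with Dll and hth, had IDR peaks in 9 of 16 cases (56.3%, against 17.2% of all genes). Some of these genes are much longer than dac, whose territory is 20562 bp, with 150849 bp at hth and 129529 bp at Antp, and the part of length in these counts was not tested. The homeodomain gene ct had 5, with the highest at 464 (rank 323), Antp had 5 with the highest at 198 (rank 1677), and hth, whose product brings Extradenticle into the nucleus, had 3 with the highest at 206 (rank 1585), or 4 when peaks in its gene body are added. The paralogs bab1 and bab2 had 2 and 1, with the highest at 174 and 266, bab1 had 3 with its gene body added, and the bab2 summit lay 974 bp from its TSS. Lim1 (130), Sp1 (143), btd (134) and rn (131) had 1 each, while Dll, exd, al, B-H1, B-H2, ss and ap had none. Per length, with gene bodies included as for dac, dac was above all 16, with 77.8 pooled peaks per 100 kb against a median of 27.0, with 0 at exd and 44.4 at hth, the highest.

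**Figure D5:**
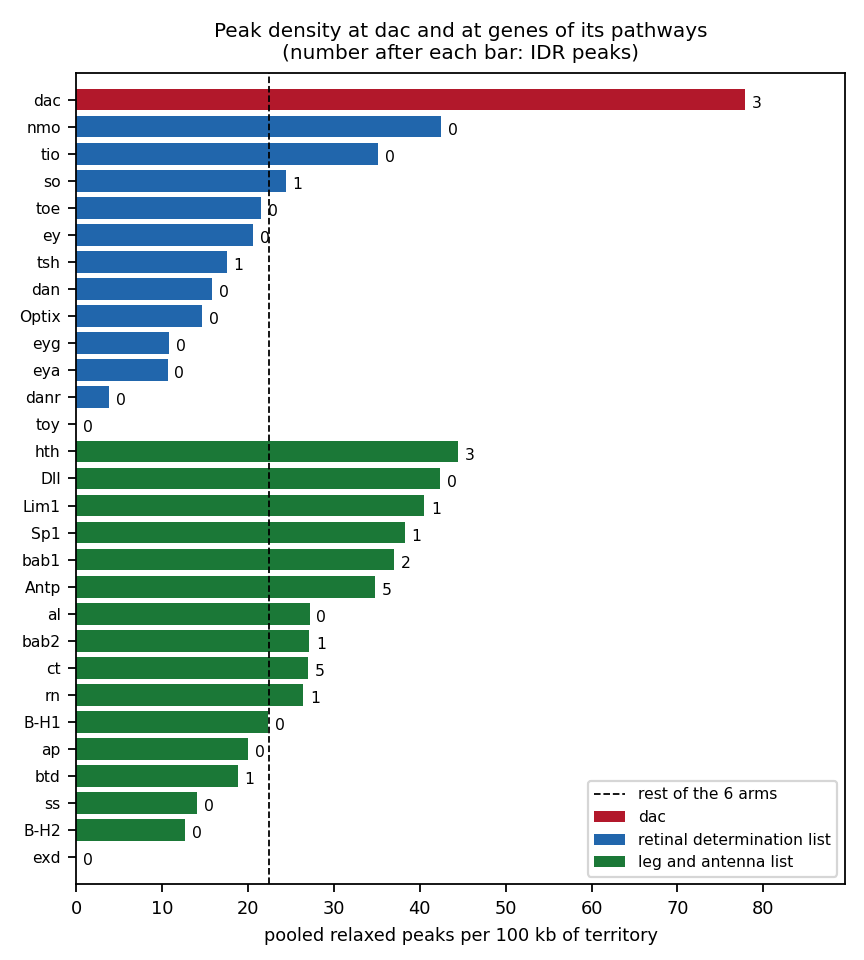
Pooled peaks per 100 kb of territory (bars, starting at 0) for dac, the 12 retinal determination genes and the 16 leg and antenna genes, with the number of IDR peaks by nearest TSS beside each bar and the density of the rest of the arms as a dashed line. At 77.8 per 100 kb dac is above all 28 of them, of which hth is the highest at 44.4.

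The genes whose counts were most like those of dac were sought among genes of similar territory, over the IDR list, the pooled list at q of 0.05 or less and the strongest peaks of each replicate, where dac had 3, 8, 5 and 2. The nearest was CG42852 with 3, 7, 5 and 2 (Euclidean distance 0.170 on log2(count + 1)). Next came soti, an inhibitor of a ubiquitin ligase in sperm maturation, with 3, 8, 4 and 2 (0.263), and ttk, a BTB zinc-finger repressor gene, with 3, 9, 4 and 2 (0.304). With peaks counted in the gene body or within 5000 bp, the nearest were aop, dnr1 and slow, so 0 of 3 were the same.

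Sequence motifs were looked for on both strands within 100 bp of the 3 IDR summits. The Pho motif GCCAT, the core of sites for a Polycomb recruiting protein, matched at 2 of 3, the middle and the far summit, against 26.3% of the other IDR summits and 31.8% of protein-coding promoter windows of the same length. The homeodomain core TAATTG matched at the far summit, against 17.3% and 14.9%. CTTTGAT, the motif of Pangolin, the factor of the Wingless pathway, matched 12 bp from the far summit, against 3.75% and 3.41%. These shares are per summit and per motif, while 17 motifs were searched at each of the 3 summits. How many matches such a whole search gives at other IDR summits was not tested, so the matches at dac are not shown to be unusual. The promoter summit had no match to any of the 17 motifs. The other 14, searched in the same way with no match at the 3 summits, were GAGAGAG of GAGA factor, TGATAC of Sine oculis, CAGCTG of proneural proteins, the paired-class homeodomain palindrome, TGACAG of Homothorax, TGATNNAT of Extradenticle with Hox proteins, CATTCC of Scalloped, CCGGAA of ETS proteins, CAGGTA of Zelda, AGGTCA of nuclear receptors, GTGGGAA of Su(H), GGCGCC of Brinker and Mad, TATCGATA of DREF and GGTCACACT of M1BP.

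The middle peak, printed above, held a GAGA run just beyond the summit window. A search over a whole peak was not planned and is given for the middle peak alone. GAGAGAG matched at 2 overlapping positions between 16486446 and 16486454, 101 bp from the summit and 448 bp from the TSS. In windows of 187 bp, the length of that peak, GAGAGAG matched in 4.67% of the other IDR peaks and in 3.36% of promoters, and GCCAT in 23.9% and 29.8%. In the intron windows printed above, the intron 3 site held TAATTG on the opposite strand at 2 positions and GCCAT. The intron 8 site held a match each to the Pho, Scalloped and homeodomain motifs. In windows of the same length, CATTCC of Scalloped matched at 6.65% of the other IDR summits and 7.64% of promoters. GCCAT matched at 26.3% and 31.8%, and TAATTG at 17.3% and 14.9%. These shares too are per window and per motif, and the number of matches over all searched motifs was not tested. The GC content of these intron windows was 34.8% and 35.3%. The GC content of the window around the promoter summit was 55.2%, that of the middle summit 46.8% and that of the far summit 38.3%, against a median of 35.8% over IDR summits, with 10th and 90th percentiles of 28.9% and 45.8%. The promoter and middle windows were therefore richer in GC than 90% of IDR windows.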

How the data were processed

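ChIP-seq against the GFP tag was done on whole prepupae in 2 biological replicates of 1 group. The authors deposited peak lists on dm6: an IDR list, a relaxed list of the pooled replicates and a relaxed list of each replicate, made with a control per the file notes. Per the file columns, the deposited values are a signal of unstated scale per peak, −log10 of a q-value, and a summit offset, a deposited unit of its own in base pairs. Neither the aligner, the peak caller nor the IDR cut-off was stated (not given in the sources used here). Read depth is unknown. The 4 dm3 lists were not used.

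From these, Python 3.11.15 with pandas 2.3.3, numpy 2.4.6 and scipy 1.17.1 assigned summits to 13945 protein-coding genes (Ensembl release 115), ranked peaks within lists, counted overlaps of at least 1 bp and counted motifs. Peaks are not replicates, so no test was run. Assignment was tested on simulated data. The members and lists were chosen with earlier results of these data known. Named genes were dac, its 3 nearest neighbours on each side, every list member and the 3 genes most like dac in counts, and also the 3 most like it under the alternative count within 5000 bp. Alternatives varied the list, the q threshold, the overlap, the assignment and the motif window.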

Additional observations from a re-analysis of the deposited data

How the results depend on the processing

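No paired analysis was possible because the series has 1 group. All 3 IDR peaks at dac lay within 1000 bp of the TSS, while 13 of the 16 peaks of the whole pooled list lay in introns. Introns span 14532 of the 20562 bp that the rule for dac covers, and upstream the rule reaches only to 16487073. The rule itself therefore limits where members can lie. In place of the 3 IDR peaks, the strongest 4137 peaks of single replicates gave 2 to 5 with the other replicate left out, 5 for replicate 1 and 2 for replicate 3. Merging IDR peaks within 100 bp gave 2, and so did keeping only those above the median signal. The 8 pooled peaks at q of 0.05 or less became 16 over the whole list. The 14 replicate 1 peaks shared with replicate 3 became 9 with summits within 100 bp. The density ratio of 3.47 became 5.68 at q of 0.05 or less, an alternative chosen after seeing the data, and at that q it was 9.87 in replicate 1 alone and 3.77 in replicate 3 alone. Counting peaks in gene bodies or within 5000 bp raised the genes with an IDR peak to 5248 and left 0 of the 3 genes most like dac. With IDR peaks above the median signal, 1 retinal determination gene (8.33%) and 5 leg and antenna genes (31.3%) had a peak, against 10.5% of all genes. With motifs within 50 bp of a summit, 1 of 3 motifs matched. The unknown read depth and the unstated signal scale limit comparisons between lists to ranks.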
